A study of Homo sapiens with 6 samples.

Results

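RNA levels of 10 genes that mark or drive the mesenchymal state were followed in MDA-MB-231, an established human line of triple-negative breast cancer, with and without a knockout of ARID1A. They were VIM, the SNAI and ZEB factors SNAI1, SNAI2, ZEB1 and ZEB2, the factors TWIST1, TWIST2 and PRRX1, and the cadherins CDH2 and CDH11. The 10 were chosen by symbol from 58174 gene IDs, and the counts of their transcripts were summed per gene. Total RNA was sequenced from cells labelled KO1 and KO2, both with an ARID1A knockout genotype, and from cells labelled NC, with a control genotype. GEO lists 6 samples, 2 in each of the 3 groups, and the deposited table holds 1 column per group for each unit. All groups are the same line, and no treatment is given. Whether KO1 and KO2 are single clones, and how ARID1A was targeted, are not given in the sources used here. A column carries no replicate number, so no spread between cultures exists for any value, and each interval below is an exact 95% interval of counting error alone.

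Epithelial to mesenchymal transition is the programme by which epithelial cells loosen their junctions and gain motility. SNAI1 and SNAI2 (Snail and Slug) are zinc finger repressors that bind the E-box CAGGTG in promoters of epithelial genes such as CDH1, and ZEB1 and ZEB2 bind similar sites through clusters of zinc fingers. TWIST1 and TWIST2 are basic helix-loop-helix factors and PRRX1 is a homeobox factor, all able to promote the transition. VIM is the main intermediate filament protein of mesenchymal cells, and the cadherins CDH2 (N-cadherin) and CDH11 (OB-cadherin) are adhesion receptors found on mesenchymal cells. MDA-MB-231 is used widely as a line of mesenchymal character with abundant VIM and little CDH1. ARID1A belongs to BAF, a complex that remodels chromatin, and helps it to bind DNA.

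Of the 10 genes, 6 have at least 1 RefSeq start site with an upstream window of 250 bases (GRCh38.p14), which gave 13 windows. Of these, 4 hold no annotated exon of their own gene, and a window of VIM and one of ZEB1 are shown because the transcripts of these genes were divided differently among the columns (below). The VIM window, chr10:17227991-17228240 on the plus strand, ends just before the start site at 17228241, near the first base of the transcript VIM-209. The ZEB1 window, chr10:31318167-31318416 on the plus strand, ends before the start site at 31318417, and the transcript ZEB1-206 begins at 31318495. Capitals mark CAGGTG, the E-box bound by SNAI and ZEB factors, searched on both strands as CAGGTG or CACCTG.
VIM: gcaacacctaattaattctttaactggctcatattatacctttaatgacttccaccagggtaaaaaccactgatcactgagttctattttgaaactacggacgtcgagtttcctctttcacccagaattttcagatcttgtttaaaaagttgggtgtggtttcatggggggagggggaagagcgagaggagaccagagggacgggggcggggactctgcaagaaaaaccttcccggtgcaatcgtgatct
ZEB1: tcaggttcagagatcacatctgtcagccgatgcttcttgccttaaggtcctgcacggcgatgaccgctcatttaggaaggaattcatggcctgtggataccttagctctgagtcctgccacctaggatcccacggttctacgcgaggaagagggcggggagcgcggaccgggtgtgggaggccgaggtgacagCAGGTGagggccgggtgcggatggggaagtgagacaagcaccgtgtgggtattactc
The VIM window held neither CAGGTG nor CACCTG, and its count of the looser form CANNTG was 0. The ZEB1 window held 1 CAGGTG, with its first base 57 bases upstream of the start site. It was shown for that match, and the other ZEB1 window free of the gene's exons, chr10:31319518-31319767, held 0 of either form and 0 CANNTG. Of the 7 ZEB1 windows, 2 held CAGGTG or CACCTG. Among 34943 upstream windows of the same length, 17.5% held CAGGTG or CACCTG and 61.8% held CANNTG, which includes both. A match describes the letters only and is not evidence of binding. SNAI1, SNAI2, TWIST1 and CDH11 were not matched to a window.

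The targeted gene checks the labels first. ARID1A stood at 45.7 CPM (counts set to equal library size with TMM factors) in the KO1 column and 83.9 CPM in the KO2 column, against 77.3 CPM in NC. Its log2 fold was -0.76 for KO1 over NC and 0.12 for KO2 over NC, so the RNA of the column labelled KO2 was not lower than that of NC. ARID1A protein was not analysed here, and the names KO1 and KO2 below are those of the labels. Total counts ran from 25801499 to 26798753 per column, and transcripts of the mitochondrial genome took 20.5% of them in KO1 and 16.9% in KO2, against 12.8% in NC. Among markers of the line, VIM, CD44, MSN and AXL were abundant, and CDH1 had 7 and 30 counts in KO1 and KO2, against 8 in NC. Other genes listed as low in the line were not all low. CLDN4 was at 53.7 CPM in KO1 and 122 CPM in KO2, against 94.5 CPM in NC. GATA3 was at 15.3 and 15.6 CPM, against 8.93 CPM, and CLDN3 had 28 and 41 counts, against 6. Of the receptors that a triple-negative tumour lacks, PGR had 0 counts in every column, ESR1 had 0 in KO1 and 14 in KO2, against 0 in NC, and ERBB2 was at 28.0 CPM in KO1 and 52.4 CPM in KO2, against 75.7 CPM in NC. EGFR, a marker of the line, was at 429 and 317 CPM, against 152 CPM in NC.

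Markers of other cell types were mostly low and moved in both directions. Of 9 fibroblast markers, 2 (DCN and DPT) had 0 counts in every column, and their summed TPM (a level per transcript length) was 11.9 in KO1 and 13.6 in KO2, against 11.4 in NC. That sum hides opposite differences. COL1A1, a fibrillar collagen, made up most of it at 11.7 TPM in KO1 and 12.22 TPM in KO2, against 6.9 TPM in NC, while PDGFRB, a receptor of fibroblasts and pericytes, was at 0.09 and 0.80 TPM, against 3.43 TPM. In CPM, COL1A1 was 2.52-fold higher in KO1 than in NC (2.27 to 2.79) and 1.84-fold higher in KO2 (1.66 to 2.04). LUM, a proteoglycan of connective tissue, had 4 and 10 counts, against 35 in NC. Of 7 endothelial markers, 1 (TIE1) had 0 counts throughout, and the list summed to 1.03 TPM in KO1 and 3.01 TPM in KO2, against 1.62 TPM in NC. PECAM1, an endothelial adhesion molecule, had 14 counts in KO1 and 166 in KO2, against 94 in NC, and KDR, a VEGF receptor, had 61 and 47, against 22. Of 9 leukocyte markers, 2 (MS4A1 and TYROBP) had 0 counts throughout, and the list summed to 2.97 TPM in KO1 and 7.58 TPM in KO2, against 6.35 TPM in NC. CD14 had 30 and 160 counts, against 163 in NC, LYZ had 8 and 15, against 0, and PTPRC had 0 and 4, against 0. The part of other cells in the results below was not tested.

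SNAI1 was lower in both knockout columns and CDH11 was present in both but at 0 counts in NC. VIM, SNAI2, ZEB1 and ZEB2 stayed within a log2 fold of 1 of NC in each knockout column. TWIST1 and TWIST2 had no count in any column, and PRRX1 and CDH2 were close to the limit of detection. Of the 10 genes, 8 had a count in some column and 6 had a mean of at least 1 CPM, the minimum for the size rule used here. That rule asks for a log2 fold of CPM of at least 1 in size and a counting interval that leaves out equality. It has no p-value, and bulk RNA cannot tell fewer cells that carry a transcript from less of it per cell.

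**Figure D1:**
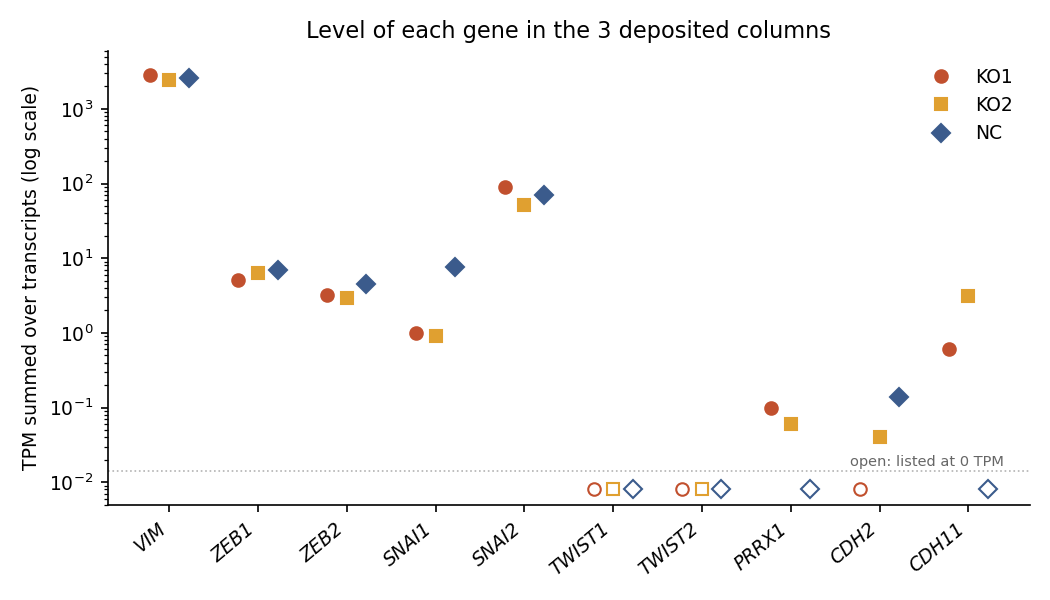
Level of the 10 genes in the KO1, KO2 and NC columns, as deposited TPM summed over the transcripts of each gene, on a log axis; open symbols stand for 0 TPM. VIM lies between 2427.89 and 2809.98 TPM in the 3 columns, SNAI1 stands at 1.0 and 0.90 TPM in KO1 and KO2 against 7.62 TPM in NC, and CDH11 is at 0 in NC.

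In KO1 against NC, 1 of the 6 genes was higher (CDH11) and 1 lower (SNAI1) by the size rule, where 15.4% of all 14524 genes measured at this level were higher and 17.4% lower. In KO2 against NC, the same genes were again the 1 higher and the 1 lower, where 11.0% of all genes were higher and 9.98% lower. Over all genes, 6.22% were higher in both knockout columns and 5.65% lower in both, and both comparisons share the single NC column. The median log2 fold over the 6 genes was 0.37 in KO1 and -0.45 in KO2, beside -0.01 and 0.00 over all genes measured. The counts of 1 in 6 are near the background in KO1 and somewhat above it in KO2, and too few to separate from it. CDH11, at 0 counts in NC, met the minimum mean only through the knockout columns, where it was high.

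The only test used edgeR's quasi-likelihood method with both knockout columns as 1 group against NC. It leaves 1 residual degree of freedom and takes the lone NC column to vary as the knockout columns do, so its p-values rest on the spread between KO1 and KO2. It called 27 of 18289 genes (0.148%) at an adjusted p under 0.05, 10 higher and 17 lower. Of the 7 genes of the set in that fit, 0 were called, and 1409 genes overall had an unadjusted p under 0.05. DESeq2 and an edgeR fit with no filter on low counts each called 1 of them, CDH11. "Higher" and "lower" below therefore describe columns and are not calls of the test.

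**Figure D2:**
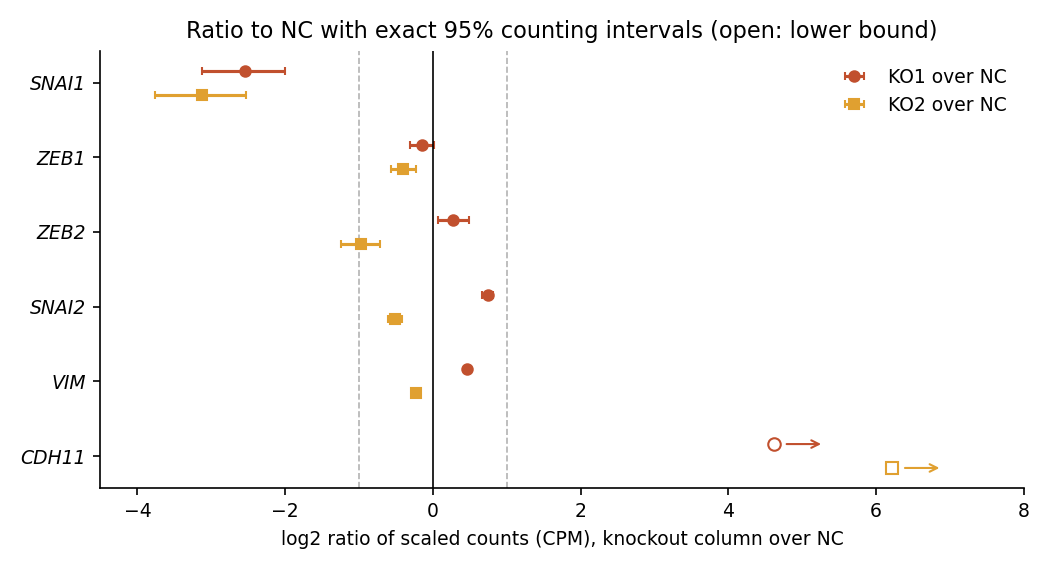
Ratio of CPM in KO1 and in KO2 over NC for the 6 genes with a mean of at least 1 CPM, as log2, with exact 95% counting intervals as bars and dashed lines at a log2 ratio of 1 and -1. Open symbols with arrows are lower bounds for CDH11, at 0 counts in NC; SNAI1 and CDH11 lie beyond the dashed lines in both columns, while VIM, SNAI2 and ZEB2 lie on opposite sides of 0 in KO1 and KO2.

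SNAI1 (ENSG00000124216, hg38 chr20:49982999-49988886, plus strand), the Snail repressor, had 32 counts in KO1 and 26 in KO2, against 226 in NC. That is 1.39 CPM (0.952 to 1.96) in KO1 and 0.928 CPM (0.606 to 1.36) in KO2, against 8.07 CPM (7.05 to 9.20) in NC. Both knockout columns were low and their counting intervals overlapped each other but not that of NC. The difference from NC was 5.8-fold in KO1 (4.0 to 8.69; log2 fold -2.47) and 8.7-fold in KO2 (5.78 to 13.6; log2 fold -3.02), lower in each. With both columns as 1 group its edgeR log2 fold was -2.80, with an unadjusted p = 0.00888 and an adjusted p = 0.332 over all genes, so it did not pass. Its only transcript with counts was the coding SNAI1-201, of 1686 bases, and the pseudogene SNAI1P1 had 0 counts in all columns. The share of counts from the mitochondrial genome was also higher in both knockout columns. With mitochondrial genes left out, the log2 fold of SNAI1 was -2.47 in KO1 and -3.02 in KO2. Any other part of that share in the level of SNAI1 was not tested.

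Most measured genes near SNAI1 lay below NC, as did most of its chromosome. The 20 nearest, all within 0.924 Mb, had a median log2 fold of -0.29 in KO1 and -0.89 in KO2. Over the 380 other measured genes of chromosome 20 the medians were -0.41 and -0.44, so in KO1 the near genes lay above the chromosome's median and in KO2 below it. By the size rule 2 of the 20 were higher in KO1 (CEBPB and ZFAS1) and 7 lower, and 0 were higher in KO2 and 9 lower. Over all measured genes, 15.4% were higher in KO1 and 17.4% lower, and 11.0% were higher in KO2 and 9.98% lower. In both columns 4 were lower (ZNFX1, B4GALT5, RIPOR3 and BCAS4) and 0 higher, where 5.65% of all measured genes were lower in both. SNAI1 lay further below NC than these medians, and the part that the region or the chromosome has in its level was not tested.

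**Figure D3:**
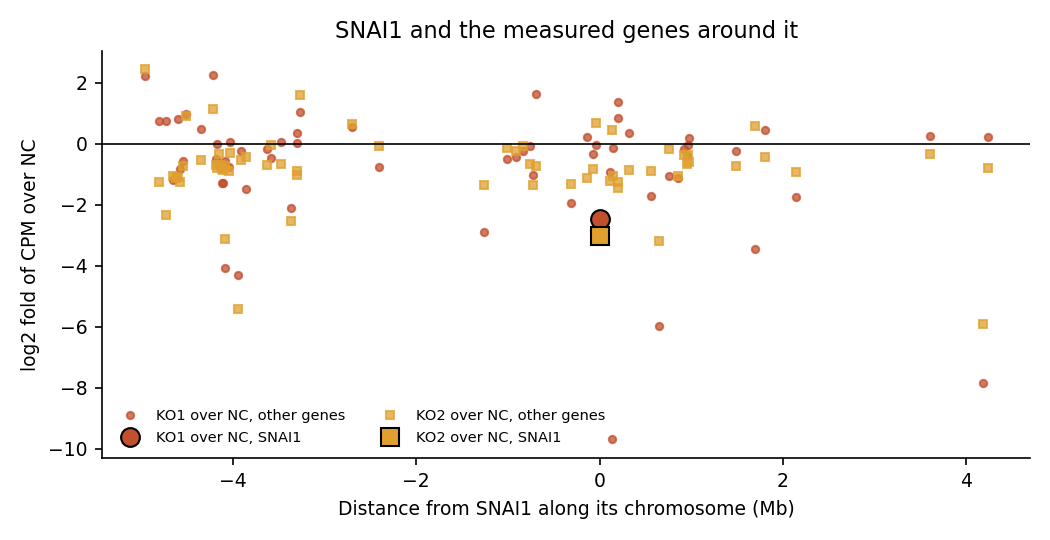
log2 fold of CPM over NC for SNAI1 (large outlined symbols) and for other measured genes within 5 Mb of it, by distance along the chromosome, with circles for KO1 and squares for KO2. Most points lie below 0; SNAI1 is at -2.47 in KO1 and -3.02 in KO2, and the 20 nearest genes have medians of -0.29 and -0.89.

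SNAI2 (ENSG00000019549, hg38 chr8:48917768-48921740, minus strand), the Slug repressor, had 3389 counts in KO1 and 1729 in KO2, against 2465 in NC. This is 147 CPM (142 to 152) and 61.7 CPM (58.9 to 64.7), against 88.0 CPM (84.6 to 91.6) in NC. KO1 was the highest column and KO2 the lowest, with NC between them, and no interval overlapped another. SNAI2 was 1.67-fold higher in KO1 than in NC (1.59 to 1.76) and 1.43-fold lower in KO2 (1.34 to 1.52). Neither difference reached the size rule, and the edgeR log2 fold over both columns was 0.25 with an adjusted p = 0.988.

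SNAI2 carried most of the RNA of these factors per length. In TPM it stood at 90.46 in KO1 and 51.04 in KO2, against 70.35 in NC, and the 7 transcription factors together summed to 99.91 and 61.2 TPM, against 89.34 TPM. SNAI2 was 90.5% of that sum in KO1 and 83.4% in KO2, against 78.7% in NC. SNAI1 was 1.09% of the SNAI1 and SNAI2 TPM in KO1 and 1.73% in KO2, against 9.77% in NC. The 2 knockout columns thus shared a small SNAI1 fraction although their SNAI2 levels lay on opposite sides of NC. The coding transcript SNAI2-201 held at least 99.0% of the gene's TPM in each column.

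ZEB1 (ENSG00000148516, hg38 chr10:31318495-31529814, plus strand) had 514 counts in KO1 and 526 in KO2, against 693 in NC. It stood at 22.3 CPM (20.5 to 24.4) in KO1 and 18.8 CPM (17.2 to 20.5) in KO2, against 24.8 CPM (22.9 to 26.7) in NC. Its level was thus similar in the 3 columns, 1.11-fold lower in KO1 than in NC with an interval that includes equality (0.987 to 1.24) and 1.32-fold lower in KO2 (1.18 to 1.48). The edgeR log2 fold was -0.27 with an adjusted p = 0.987. Between the knockout columns ZEB1 was 1.19-fold lower in KO2 than in KO1 (1.05 to 1.35), but higher by a log2 of 0.01 on library totals and 0.28 on TPM.

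ZEB2 (ENSG00000169554, hg38 chr2:144364364-144524583, minus strand) had 360 counts in KO1 and 184 in KO2, against 361 in NC. That is 15.7 CPM (14.1 to 17.4) in KO1 and 6.57 CPM (5.65 to 7.59) in KO2, against 12.9 CPM (11.6 to 14.3) in NC. KO2 was the low column, 1.96-fold below NC (1.64 to 2.36), and KO1 was 1.21-fold above NC (1.05 to 1.41). The direction for KO1 depended on the unit, with a log2 fold of 0.28 in CPM and -0.42 in deposited TPM, where ZEB2 stood at 3.26 in KO1 and 2.91 in KO2 against 4.52 in NC. The edgeR log2 fold was -0.22 with an adjusted p = 0.990. ZEB1 made up 61.0% of the summed ZEB TPM in KO1 and 68.4% in KO2, against 60.2% in NC, and the pseudogene ZEB2P1 had 0 counts.

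VIM (ENSG00000026025, hg38 chr10:17228259-17237593, plus strand) was the most abundant of the set, at 108551 counts in KO1 and 81917 in KO2, against 95508 in NC. Its level was 2809.98 TPM in KO1 and 2427.89 TPM in KO2, against 2590.88 TPM in NC, which ranked it 40 in KO1 and 39 in KO2, against 37 in NC, among all genes. It took 0.421% of all counts in KO1 and 0.313% in KO2, against 0.356% in NC. The columns stood in the order KO1, NC, KO2, with VIM 1.38-fold higher in KO1 than in NC (1.37 to 1.40) and 1.17-fold lower in KO2 (1.16 to 1.18). Over all measured genes, 45.0% in KO1 and 56.3% in KO2 lay within 1.5-fold of NC, as VIM did. The edgeR log2 fold was 0.16 with an adjusted p = 0.994. The 20 measured genes nearest to VIM lay lower as a group, with a median log2 fold of -0.79 in KO1 and of -0.50 in KO2, beside -0.16 and -0.04 over the chromosome's other measured genes.

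CDH11 (ENSG00000140937, hg38 chr16:64943753-65126112, minus strand), the OB-cadherin, had 76 counts in KO1 and 276 in KO2, against 0 in NC. It stood at 3.30 CPM (2.60 to 4.14) in KO1 and 9.85 CPM (8.73 to 11.1) in KO2. The exact interval of 0 counts in NC reaches 0.132 CPM, and the floor of 3 counts used here is 0.107 CPM in NC. Both knockout columns were above that floor and differed from each other. With the counting error of both columns included, CDH11 was at least 24.5-fold higher in KO1 than in NC and at least 74.3-fold higher in KO2, the lower limits of the exact 95% intervals. The adjusted p in edgeR was 0.079, with an unadjusted p = 0.000301, and DESeq2 gave an adjusted p = 0.00227. The 20 nearest measured genes had medians of -0.11 and -0.16. By the size rule 0 of them were higher in both columns, where 6.22% of all measured genes were.

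In TPM CDH11 reached 0.60 in KO1 and 3.09 in KO2. Most of it was assigned to CDH11-202, a coding transcript of 6874 bases, with 95% of the gene's TPM in KO1 and 68.9% in KO2. The short coding CDH11-206, of 568 bases, took 20.7% in KO2 from 7 counts. Fibroblasts are known to carry CDH11. Of their markers, COL1A1 was also above NC in both knockout columns and PDGFRB below it in both, at the values given above, and the part of such cells in the CDH11 counts was not tested.

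CDH2 (ENSG00000170558, hg38 chr18:27950966-28177446, minus strand), the N-cadherin, had 1 count in KO1 and 3 in KO2, against 11 in NC. The ratio to NC was 0.111 in KO1 (0.00257 to 0.761) and 0.273 in KO2 (0.0488 to 1.03), so only the KO1 interval left out equality. All 3 columns lay under 1 CPM, and edgeR gave an adjusted p = 0.936. The unnamed gene ENSG00000227279 on the opposite strand had 8 counts in KO1 and 7 in KO2, against 0 in NC.

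PRRX1 (ENSG00000116132, hg38 chr1:170662728-170739419, plus strand) had 8 counts in KO1 and 5 in KO2, against 0 in NC. These are 0.348 and 0.179 CPM. The exact 95% interval of the ratio to NC began at 2.08 in KO1 and at 0.916 in KO2, so the KO2 interval includes equality. The gene stayed under 1 CPM in every column. PRRX1-207 took 6 of the 8 counts in KO1, and all 5 counts in KO2 were assigned to PRRX1-201. TWIST1 (ENSG00000122691, hg38 chr7:19020991-19117672, minus strand) and TWIST2 (ENSG00000233608, hg38 chr2:238848032-238910543, plus strand) were listed at 0 in all columns. The exact intervals reach 0.16 CPM in KO1 and 0.132 CPM in KO2 and in NC.

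Ordered by TPM, VIM and SNAI2 led in every column. SNAI1 followed them in NC at 7.62 TPM, above ZEB1 at 6.85 TPM and ZEB2 at 4.52 TPM. In KO1 ZEB1 (5.09 TPM) and ZEB2 (3.26 TPM) preceded SNAI1 (1.0 TPM) and CDH11 (0.60 TPM). In KO2 CDH11 (3.09 TPM) stood between ZEB1 (6.29 TPM) and ZEB2 (2.91 TPM), with SNAI1 at 0.90 TPM below them. Without replicates, no spread between cultures can separate neighbours in this order.

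KO2 and KO1 carry the same genotype label, and 3 of the 6 measured genes differed between them by the size rule. CDH11 was 2.98-fold higher in KO2 than in KO1 (2.31 to 3.90), where 14.9% of all measured genes were higher. SNAI2 was 2.39-fold lower in KO2 (2.25 to 2.53) and ZEB2 2.38-fold lower (1.99 to 2.86), where 11.2% of all genes were lower. On library totals and on deposited TPM only CDH11 of the 3 passed. VIM was 1.61-fold lower in KO2 than in KO1 (1.60 to 1.63), and SNAI1 was 1.5-fold lower with an interval that includes equality (0.865 to 2.62).

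The table lists 122 transcripts of the 10 genes, of which 44 had a count, and the columns differed in how a gene's RNA was divided among them. For VIM the coding transcript VIM-209, of 2135 bases, held 61.8% of the gene's TPM in KO1 and 66.9% in KO2, against 92.6% in NC. VIM-201, a coding transcript whose annotation begins at 17229278 rather than 17228259, held 17.0% in KO1 and 4.21% in KO2, against 0.341% in NC, or 16599 and 3204 counts against 289. It shares 1867 of its 1868 exon bases (99.9%) with VIM-209, so the split between them rests on few bases. Transcripts of VIM annotated as not coding a full protein took 21.2% in KO1 and 28.8% in KO2, against 7.01% in NC. Of these, VIM-203, annotated for nonsense-mediated decay, had 10.1% and 10.4%, against 2.79%, and VIM-205, a processed transcript, had 5.06% and 13.6%, against 1.80%. Coding transcripts of VIM summed to 2215 TPM in KO1 and 1727 TPM in KO2, against 2409 TPM in NC. In TPM both knockout columns thus lay below NC on this sum, while KO1 lay above NC on the whole gene. This order holds for TPM alone, a unit that shifted KO1 against NC by a median log2 of -0.34 over all genes. The coding counts before scaling were 85590 in KO1 and 61460 in KO2, against 89850 in NC. Unscaled counts do not rank the columns. For the whole gene, 108551 counts in KO1 were 4719 CPM, and 95508 counts in NC were 3411 CPM. The same scaling places the coding counts of KO1 above those of NC, and those of KO2 below.

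**Figure D4:**
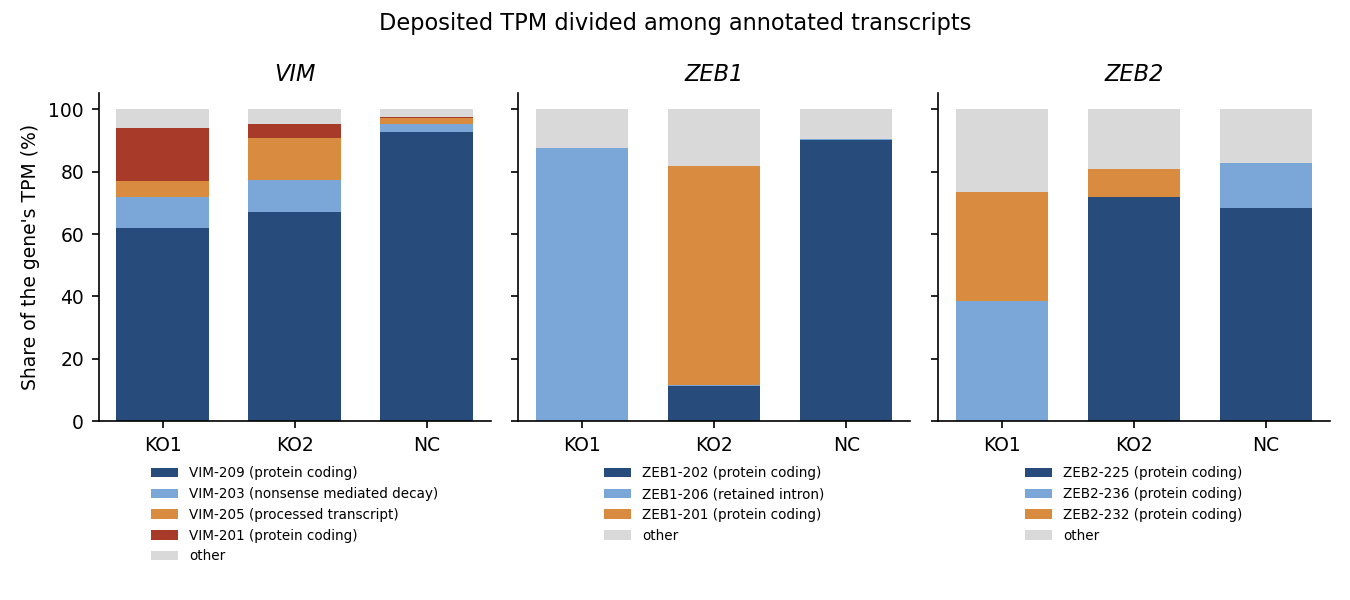
Share of each gene's deposited TPM assigned to its annotated transcripts in KO1, KO2 and NC, for VIM, ZEB1 and ZEB2, with transcript types from GENCODE in the keys. VIM-209 holds 61.8% and 66.9% in KO1 and KO2 against 92.6% in NC, and the leading ZEB1 transcript differs in each column, namely ZEB1-206, ZEB1-201 and ZEB1-202.

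ZEB1 had a similar total in the 3 columns but a different leading transcript in each. ZEB1-206, annotated as a retained intron, had 501 counts in KO1 and 1 in KO2, against 3 in NC, and 87.6% of the gene's TPM in KO1. The coding ZEB1-201 led in KO2 with 404 counts and 70.1%, and had 0 counts in KO1 and 0 in NC. The coding ZEB1-202 had 0 counts in KO1 and 74 in KO2, against 650 in NC, where it held 90.2%. Coding ZEB1 transcripts thus summed to 0.02 TPM in KO1 and 5.27 TPM in KO2, against 6.83 TPM in NC. ZEB1-206 shares 87.3% of its 6026 exon bases with ZEB1-202 and 87.4% with ZEB1-201. A transcript value is the authors' estimate from reads that mostly fit several transcripts. How they divided such reads is not given in the sources used here, so the summed gene value is the firmer one.

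ZEB2 was divided differently as well. ZEB2-225 held 0 counts in KO1 and 141 in KO2 (71.8% of the gene's TPM), against 218 in NC (68.4%). KO1 was assigned instead to the long ZEB2-236, with 225 counts against 0 in KO2 and 111 in NC, and to ZEB2-232, with 109 counts against 23 in KO2 and 0 in NC. These coding transcripts overlap, and ZEB2-225 shares 96.7% of its 4012 exon bases with ZEB2-236. ZEB2-236 has 9583 bases. In KO1 the gene lay above NC in CPM and below it in TPM, a unit that divides by transcript length. TPM also shifted KO1 against NC by a median log2 of -0.34 over all genes. The part of transcript length in the ZEB2 values was not tested.

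Antisense genes were read separately, in a stranded kit whose counting by strand is not given in the sources used here. VIM-AS1 had 38 counts in KO1 and 33 in KO2, against 80 in NC. ZEB1-AS1 had 119 and 101, against 125, and ZEB2-AS1 had 2 and 1, against 0. Each of the 3 had fewer counts than the gene it faces in every column.

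Genes known to be repressed by SNAI and ZEB factors were listed apart from the 10. Of 20 such epithelial genes, 12 had a mean of at least 1 CPM, of which 6 passed upward and 0 downward in KO1 against NC, and 7 upward and 0 downward in KO2. Over all measured genes, 15.4% passed upward and 17.4% downward in KO1, and 11.0% and 9.98% in KO2. The 4 higher in both were ESRP2, DSP, EPCAM and LLGL2, where 6.22% of all measured genes were higher in both, and edgeR called 0 of the 18 in its fit. Their median log2 fold was 0.71 in KO1 and 1.14 in KO2, beside -0.01 and 0.00 over all genes. On library totals 5 passed upward and 2 downward in KO1, with 3 upward in both columns.

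ESRP2, a splicing regulator of epithelial cells, stood at 8.87 CPM in KO1 and 5.82 CPM in KO2, against 1.54 CPM in NC, with an adjusted p = 0.603 in edgeR. DSP, the desmosomal plaque protein desmoplakin, stood at 159 CPM and 132 CPM, against 51.1 CPM (adjusted p = 0.515 in edgeR). EPCAM, an epithelial adhesion molecule, stood at 20.3 CPM and 15.4 CPM, against 6.46 CPM (adjusted p = 0.752 in edgeR). In each of these the knockout columns were both above NC and within a log2 of 1 of each other. CDH1, the E-cadherin that SNAI1 is best known to repress, was at 0.304 CPM in KO1 and 1.07 CPM in KO2, against 0.286 CPM in NC. It was 3.75-fold higher in KO2 than in NC (1.68 to 9.46), on 30 against 8 counts, and missed the size rule there only through the minimum of 1 CPM, while the KO1 interval includes equality (0.329 to 3.36). The list was not uniform. CGN, a tight junction protein, was at 0.826 and 0.893 CPM, against 1.71 CPM in NC. ESRP1 was at 4.26 CPM in KO1 and 0.357 CPM in KO2, against 0.50 CPM in NC. It met the minimum mean only through KO1, where it was highest.

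**Figure D5:**
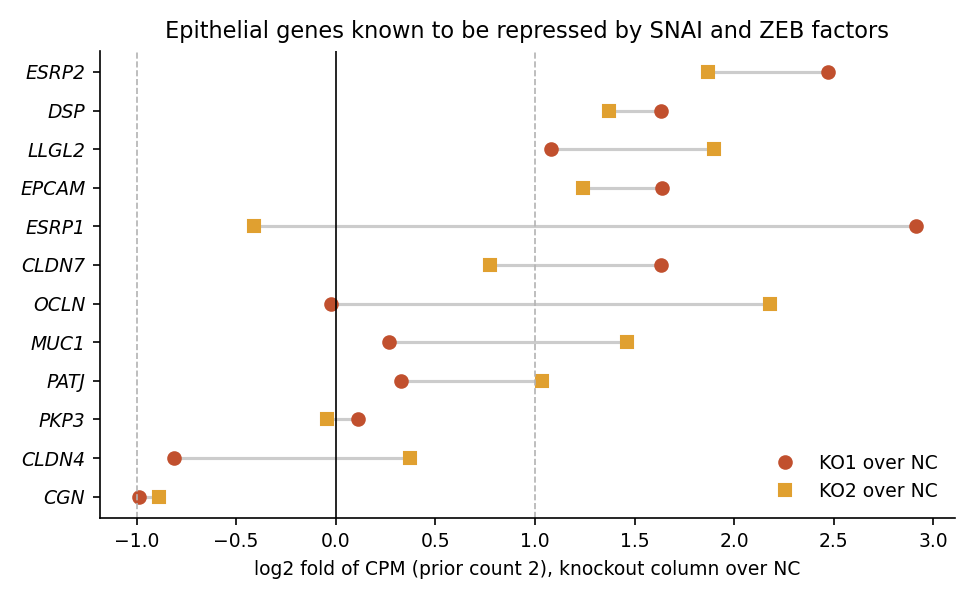
log2 fold of CPM over NC, with a prior count of 2, for the 12 measured epithelial genes known to be repressed by SNAI and ZEB factors, with circles for KO1, squares for KO2 and dashed lines at 1 and -1. ESRP2, DSP, LLGL2 and EPCAM lie beyond 1 in both columns; ESRP1 and OCLN differ widely between KO1 and KO2.

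Other transcription factors of the transition lay on both sides of NC. Of 18 listed, 13 were measured, of which 5 were higher and 3 lower than NC in KO1, and 5 higher and 1 lower in KO2. The shares over all measured genes were 15.4% higher and 17.4% lower in KO1, and 11.0% and 9.98% in KO2. In both columns 4 were higher (KLF8, SOX4, FOXQ1 and HMGA2) and 1 lower (RUNX2), where 6.22% of all measured genes were higher in both and 5.65% lower, and edgeR called 0 of 14. KLF8, a zinc finger factor, had 107 counts in KO1 and 81 in KO2, against 0 in NC, at least 34.7-fold higher in KO1 and at least 21.5-fold higher in KO2 by the exact intervals (adjusted p = 0.0900 in edgeR). SOX4, an HMG-box factor, was at 10.6 CPM in KO1 and 23.0 CPM in KO2, against 0.964 CPM in NC (adjusted p = 0.153 in edgeR). KLF8 and SOX4, both under 1 CPM in NC, met the minimum mean only through the knockout columns, where they were high. FOXQ1, a forkhead factor, was at 62.2 and 36.5 CPM, against 9.18 CPM (adjusted p = 0.274 in edgeR). RUNX2, a Runt-domain factor of bone, was at 7.56 and 10.2 CPM, against 25.2 CPM (adjusted p = 0.637 in edgeR), and did not pass in KO2 on deposited TPM. HMGA2, an architectural chromatin protein, was at 110 and 88.6 CPM, against 29.6 CPM (adjusted p = 0.409 in edgeR).

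Of 21 mesenchymal markers apart from VIM, 17 were measured, with 1 higher and 7 lower in KO1 than in NC, and 2 higher and 2 lower in KO2. The shares over all measured genes were 15.4% higher and 17.4% lower in KO1, and 11.0% and 9.98% in KO2, so the KO2 counts are near them. Their median log2 fold was -0.32 in KO1 and -0.30 in KO2, and edgeR called 0 of 18. TAGLN, an actin-binding protein of smooth muscle, stood at 7.13 CPM in KO1 and 4.28 CPM in KO2, against 28.1 CPM in NC (adjusted p = 0.302 in edgeR). ACTA2, smooth muscle actin, stood at 0.956 and 1.36 CPM, against 4.39 CPM (adjusted p = 0.704 in edgeR). NT5E, the surface enzyme CD73, was the marker higher in both columns, at 798 and 865 CPM, against 383 CPM (adjusted p = 0.85 in edgeR), and it missed the size rule in KO1 on library totals and on TPM.

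Corepressors and stability factors of the SNAI and ZEB proteins showed no gene past the size rule in both columns. All 20 were measured, with 0 higher and 1 lower in KO1 and 2 higher and 0 lower in KO2, although 5 were lower in KO1 on library totals. Over all measured genes, 15.4% were higher and 17.4% lower in KO1, and 11.0% and 9.98% in KO2. LOXL2, which acts with SNAI1 and had the highest mean level of the list, stood at 821 CPM in KO1 and 767 CPM in KO2, against 510 CPM in NC (adjusted p = 0.966 in edgeR).

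Among 15 other intermediate filament and linker genes, 9 were measured. Of these, 2 were higher and 3 lower than NC in KO1, and 3 higher and 0 lower in KO2. NES, among the lower in KO1, had 16 counts in KO1 and 408 in KO2, against 204 in NC. The 1 gene higher in both columns was GFAP, at 0.869 CPM in KO1 and 2.32 CPM in KO2, against 0.357 CPM in NC. These values rest on 20 and 65 counts, against 10, and the interval of the KO1 ratio was 1.09 to 5.82. KO1 and NC lay under 1 CPM, so GFAP met the minimum mean only through KO2, where it was highest. GFAP, the filament of astrocytes, missed the size rule in KO1 on library totals and in both columns on TPM (adjusted p = 0.814 in edgeR). Of 20 other cadherins, 10 had no count and 3 were measured. Of these, 1 was higher and 0 lower in KO1, and 1 higher and 1 lower in KO2. CDH3, the P-cadherin, was at 3.87 CPM in KO1 and 5.53 CPM in KO2, against 0.714 CPM in NC (adjusted p = 0.522 in edgeR). It met the minimum mean only through the knockout columns, and missed the rule in KO1 on TPM. CDH4, with most of the list's counts, lay below NC, at 119 and 72.1 CPM, against 182 CPM, and passed downward in KO2. The list summed to 149 CPM in KO1 and 118 CPM in KO2, against 207 CPM in NC. Of 12 catenins and armadillo partners, 9 were measured, with VCL, vinculin of adherens junctions and focal adhesions, lower in both columns at 112 and 87.9 CPM, against 225 CPM (adjusted p = 0.659 in edgeR), and not past the rule in KO1 with protein-coding genes only. Beside the filament, cadherin and catenin lists, 6.22% of all measured genes were higher in both columns and 5.65% lower in both. In single columns, 15.4% were higher and 17.4% lower in KO1, and 11.0% higher and 9.98% lower in KO2.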

How the data were processed

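RNA was sequenced from total RNA with a stranded library kit, per the labels' protocols. The submitters' processing notes name CASAVA, Bowtie2, featureCounts and hg38, with no versions or roles. The deposited table gives, per the file headers, a count, a TPM and an FPKM for each of 199167 transcripts in 3 columns, KO1, KO2 and NC; the tool that made them is not given in the sources used here. The deposited estimated counts are whole numbers per transcript that the authors did not normalize, and the authors' TPM values are scaled to a nearly fixed sum per column. The 3 FPKM columns were not used here. Whether a column is 1 library or 2 combined is not stated. GEO labels 2 samples per group, and nothing says that they came from separate cultures.

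Counts were summed per gene ID, scaled by TMM (edgeR 4.0.16, R 4.3.3) and given as CPM. Total counts ran from 25801499 to 26798753 per column, and intervals and floors (3 counts) cover counting error only. Intervals of a fold are Clopper-Pearson intervals conditional on the summed count, and those of a level are exact Poisson intervals. A gene passed the size rule with a log2 fold of at least 1 in size (prior count 2), a 95% interval excluding equality and a mean of 1 CPM. KO1 and KO2 were set as 1 group against NC in edgeR's two-sided quasi-likelihood F test, with filterByExpr, robust shrinkage and Benjamini-Hochberg adjustment over all genes. DESeq2 1.42.0, other scalings, prior counts, minimum levels and TPM (pseudocount 0.5) were alternatives. The scripts were tested on simulated data. Transcript names and types come from GENCODE release 29, symbols were found for 57392 of 58174 gene IDs, and upstream windows come from RefSeq.

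All 10 genes are named. Of each further list, the rule names up to 3 genes per direction that pass the size rule in both columns, ranked by the smaller log2 fold, or else the gene with the highest mean TPM. CDH1, CDH4, CGN, ESRP1, LLGL2, HMGA2 and NES were named after their values were seen. So were the genes near SNAI1, single markers of the line and of other cells, and the ZEB1 window shown. The genes and lists were chosen with earlier results of these data known.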

Additional observations from a re-analysis of the deposited data

Results flagged for a closer look

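VIM, ZEB2 and SNAI2 lay on opposite sides of NC in the columns labelled KO1 and KO2, each above NC in KO1 and below it in KO2 with counting intervals that left out equality. The log2 fold against NC in KO2 minus that in KO1 was -0.69 for VIM, -1.24 for ZEB2 and -1.25 for SNAI2. These differences were not tested, since each label has 1 column. For ZEB2 the KO1 side turned with the unit, with a log2 fold of -0.42 in deposited TPM against 0.28 in CPM. The intervals hold for TMM scaling alone. On library totals the KO1 log2 folds were 0.24 for VIM, 0.05 for ZEB2 and 0.51 for SNAI2. On TPM they were 0.12 for VIM and 0.36 for SNAI2.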

How the results depend on the processing

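SNAI1 and CDH11 kept their direction in both knockout columns under all alternatives run. The log2 folds of SNAI1 ran from -2.69 to -2.26 in KO1 and from -3.10 to -2.54 in KO2. Those of CDH11, at 0 counts in NC, varied far more, from 1.14 to 7.45 in KO1 and from 2.84 to 9.02 in KO2. The lowest were on deposited TPM and the highest at a prior count of 0.5. The 2 genes past the size rule in KO1 against NC became 4 with no minimum level (PRRX1 and CDH2 added) and 0 with a minimum of 5 CPM, and in KO2 against NC the 2 became 0 with a minimum of 5 CPM; the stricter minimum removes both genes by construction. In KO2 against KO1 the 3 became 1 on library totals and 1 on deposited TPM. The 27 edgeR calls over all genes became 293 with DESeq2, 14 with DESeq2 size factors, 0 on library totals (1132 genes at an unadjusted p under 0.05), 493 without a filter, 15 without mitochondrial genes, and, in alternatives chosen after seeing the data, 6 with protein-coding genes only and 48 without robust shrinkage; the cause was not tested. CDH11 was called with DESeq2 (adjusted p = 0.00227) and without a filter in edgeR (adjusted p = 2.31e-05), while its adjusted p in the other edgeR fits ran from 0.0624 to 0.384. The scaling moved genes in KO1 by a median log2 of -0.23 on library totals and -0.34 on TPM. On TPM the shift was uneven, from 0.28 to -0.42 for ZEB2 and from -2.47 to -2.44 for SNAI1. The share of calls that were higher was 46.9% in KO1 against NC as reported, 33.3% on library totals and 26% on TPM. For KO2 against KO1 these shares were 57.1%, 74.8% and 81.5%. Of single genes' values, 228 were kept, 28 moved, 9 lost and 4 gained a call. For the size rule, kept means the same call for a gene that passed, whatever its size. For a gene that did not pass, it means a value within its counting interval. For edgeR values it means the same sign and call, and for single-column values the same sign. Leaving out KO2 or KO1 leaves single-column values with no test, and for VIM, ZEB2 and SNAI2 these differ in sign. No paired analysis was possible because the columns carry no replicate numbers. Depth limits PRRX1, CDH2, TWIST1 and TWIST2, none of which had more than 11 counts in a column.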
